A study of Mus musculus with 5 samples.

Results

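The 9 genes described here are the epidermal growth factor receptor gene Egfr, the genes of its partners Erbb2 and Erbb3, the ligand genes Areg, Ereg, Hbegf, Tgfa and Btc, and the receptor inhibitor gene Lrig1. They were taken by symbol from the deposited gene table, and all 9 were found among its 27933 distinct symbols. The measurements are droplet single-cell RNA profiles of epithelial cells from the ileum, the distal small intestine, of C57BL/6 mice aged 8 to 12 weeks. Small bowel resection, in which a length of intestine is removed, is the label of 2 libraries (resection 1 and 2), and sham surgery is that of 3 libraries (sham 1, 2 and 3). No genetic change, drug or diet is named for either group, and the interval after surgery is not given in the sources used here. The labels do not say that libraries came from separate animals, so p-values measure the spread between these libraries, which may be technical.

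EGFR family receptors are kinases that pair up when a ligand binds and pass the signal through Ras and the MAP kinases to growth genes. EGFR binds all 5 ligands listed here, ERBB2 has no known ligand of its own and serves as a partner, and ERBB3 binds neuregulins and signals through its partners. The ligands are made as membrane proteins and released by cutting enzymes, while LRIG1, a marker of intestinal stem cells, promotes breakdown of the receptors.

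The positions of the members are given in mouse build GRCm38 from the RefSeq annotation, except for Hbegf. Egfr lies on chromosome 11 from 16752203 to 16913907 and Erbb2 on chromosome 11 from 98412484 to 98437716. Erbb3 lies on chromosome 10 from 128567523 to 128589635, Tgfa on chromosome 6 from 86195038 to 86275744 and Lrig1 on chromosome 6 from 94604529 to 94700298. Ereg (91074617 to 91093649), Areg (91139599 to 91148432) and Btc (91357261 to 91402994) lie within 328.4 kb of chromosome 5. The 250 bases before the start are shown for Areg, a ligand gene whose resection levels lay below its sham levels in enterocyte-like cells, and for Egfr, the gene of its receptor. They are chr5:91139349-91139598 and chr11:16751953-16752202, both on the plus strand, 5′ to 3′, from RefSeq (GRCm38).
Areg: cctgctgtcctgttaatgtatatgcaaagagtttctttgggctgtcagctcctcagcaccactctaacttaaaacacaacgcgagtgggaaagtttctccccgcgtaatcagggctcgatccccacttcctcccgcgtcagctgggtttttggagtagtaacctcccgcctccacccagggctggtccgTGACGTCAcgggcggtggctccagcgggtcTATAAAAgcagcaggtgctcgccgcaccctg
Egfr: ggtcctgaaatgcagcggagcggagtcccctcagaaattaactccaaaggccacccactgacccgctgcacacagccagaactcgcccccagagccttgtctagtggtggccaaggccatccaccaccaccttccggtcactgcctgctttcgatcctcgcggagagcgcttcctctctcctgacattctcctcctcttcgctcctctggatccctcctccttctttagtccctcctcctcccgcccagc
Capitals in the Areg sequence mark a match to the cyclic AMP response element (TGACGTCA), which begins 61 bases before the start, and a match to the TATA box (TATAAAA), which begins 31 bases before it. Both strands of the windows of 6 members were searched for these letters and for the AP-1 motif (TGANTCA), and no motif contains another. For Tgfa and Lrig1 the window that RefSeq's start gives runs into the gene span stated above. No match to any of the 3 motifs was found in the windows of Egfr, Erbb2, Tgfa, Btc and Lrig1. Of 32851 windows of this length, 1.546% held the cyclic AMP response element, 4.98% the TATA box and 6.749% the AP-1 motif. Windows of Ereg, Erbb3 and Hbegf were not used here. These matches are a description of letters, and no binding was measured.

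Of 19404 deposited cells, 18235 were used, 1283 to 3791 per sham library and 3677 and 6701 in the resection libraries. Library depth was 11749028 to 41281731 unique molecular identifiers (UMIs, each 1 counted RNA molecule), with a median of 4541 to 6239.5 per cell. The cells formed 20 clusters, which markers placed in classes that resemble enterocytes and immature enterocytes, stem and cycling crypt cells, goblet cells and Paneth cells (each named with "-like"), a T cell-like class and a cluster of 26 tuft-like cells. In the summed epithelial cells, fibroblast markers came to 0 to 0.390 CPM and endothelial markers to 0.284 to 1.21 CPM, with Dcn, Lum, Cdh5, Kdr and Adgre1 at 0. Of 19204 distinct cell barcodes, 197 occurred in more than 1 library.

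The libraries fell into a pair of sets that cut across the surgery groups, set A (sham 1 and resection 1) and set B (sham 2, sham 3 and resection 2). Cluster composition was compared over enterocyte-like and immature enterocyte-like cells only. It overlapped by 27.2% between the libraries of set A and by 37.7% to 48.1% within set B, against 3.35% to 4.59% across the sets. These sets hold for clusters made without scaling. With genes scaled within each library, sham 1 overlapped by 90.0% with sham 2 and by 63.5% with resection 1. Enterocyte-like cells were mostly in cluster 12 for sham 1 (92.9%), cluster 4 for sham 2 (78.2%) and cluster 6 for sham 3 (85.2%). Those of resection 1 lay in clusters 5 (53.0%) and 7 (42.3%), and those of resection 2 in clusters 1 (69.3%) and 8 (19.3%). Among the leading genes were the antigen presentation genes H2-Aa and Cd74 for cluster 4, the inflammatory genes Ccl20 and Nos2 for cluster 6, the stress gene Atf3 beside Areg and Ereg for cluster 8, and the interferon response genes Isg15 and Ifit1 for cluster 19. Mitochondrial genes took a median of 13.3% of a cell's counts in sham 1 and 11.6% in resection 1, and 7.23% to 9.10% in the libraries of set B. Log2 differences of the members between the surgery groups are therefore given within each set as well, where every library had at least 10 UMIs of the gene in the class.

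The members differed in the class where they were highest. Areg, Ereg, Hbegf, Tgfa and Erbb3 had their highest mean in enterocyte-like cells, whereas Egfr and Lrig1 had theirs in stem-like cells. Levels are CPM, the UMIs of a gene in a class of 1 library scaled to a fixed total of UMIs, counted at the 3′ end of the RNA. The classes come from clustering the same cells, so these orders are a description without a test, although the 9 genes were left out of the genes used for clustering. The stem-like cluster was led by DNA replication genes such as Hells, Lig1 and Mcm6 together with the stem markers Slc12a2 and Cdca7. The stem markers Lgr5, Ascl2 and Olfm4 were not among its leading genes, so it may hold replicating progenitors as well as stem cells.

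Amphiregulin, encoded by Areg, is an EGFR ligand known for its part in tissue repair. Areg had 653 ± 255 CPM (SD, n = 5 libraries) in enterocyte-like cells, 211 ± 28.8 in immature enterocyte-like cells, 170.4 ± 37.8 in goblet-like cells and 101 ± 39.9 in cycling-like cells. Stem-like and Paneth-like cells had the lowest levels, 50.5 ± 14.2 and 39.0 ± 15.4 CPM. Enterocyte-like cells were above immature ones in 5 of 5 libraries with ranges that did not overlap, while each later pair of neighbours in this order overlapped.

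Epiregulin, encoded by Ereg, is a ligand that also acts through ERBB4. Ereg had 96.8 ± 40.4 CPM (SD, n = 5) in enterocyte-like cells, 33.7 ± 13.9 in goblet-like cells and 22.4 ± 3.67 in immature enterocyte-like cells. Cycling-like, stem-like and Paneth-like cells had 11.4 ± 4.40, 9.29 ± 8.39 and 6.63 ± 2.22 CPM. Ranges were separate between immature enterocyte-like and cycling-like cells and overlapped for the other neighbours.

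Heparin-binding EGF-like growth factor, encoded by Hbegf, was spread more widely. Hbegf had 375 ± 46.0 CPM (SD, n = 5) in enterocyte-like, 195 ± 42.1 in goblet-like, 186 ± 52.1 in immature enterocyte-like cells, and cycling-like cells had 157 ± 61.9. Stem-like cells had 99.8 ± 40.1 and Paneth-like cells 27.7 ± 13.0 CPM. Ranges of neighbours were separate at the first and the last step of this order and overlapped in between.

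Tgfa, which encodes transforming growth factor alpha, had 15.0 ± 5.77 CPM (SD, n = 5) in enterocyte-like cells and 2.24 ± 1.29 in Paneth-like cells. In the other 4 classes its mean lay between 7.47 and 12.6 CPM, and only the step down to Paneth-like cells had separate ranges. Btc, which encodes betacellulin, averaged 2.12 to 3.29 CPM in 5 classes with no order that held across libraries. In Paneth-like cells no Btc UMI was counted among 14439699, which allows up to 0.208 CPM (3 counts, counting error only).

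Egfr was sparse in every class. It had 11.0 ± 3.88 CPM (SD, n = 5) in stem-like cells, 7.46 ± 2.10 in cycling-like cells, 5.48 ± 3.52 in immature enterocyte-like and 3.86 ± 4.35 in goblet-like cells. Enterocyte-like cells had 3.45 ± 1.06 and Paneth-like cells 1.65 ± 0.984 CPM. Every pair of neighbours in this order overlapped, but stem-like cells were above enterocyte-like cells in 5 of 5 libraries, by 1.62 to 4.39 times. The stem-like level rests on 47 UMIs. The T cell-like cells, which are not epithelial, had 6.16 ± 3.19 CPM from 13 UMIs, within the range of the epithelial classes.

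Erbb2 was nearly even across classes, with means of 68.1 to 71.0 CPM in 5 classes and no order that held across libraries. Paneth-like cells stood apart, at 11.6 ± 4.81 CPM (SD, n = 5). Libraries differed more than these classes did. In enterocyte-like cells Erbb2 was 122, 52.9 and 35.3 CPM in sham 1, 2 and 3 and 82.6 and 50.9 CPM in resection 1 and 2, and sham 1 and resection 1, the libraries of set A, were the top pair in 5 of 6 classes. The T cell-like cells, which are not epithelial, had 55.2 ± 17.7 CPM of Erbb2 (SD, n = 5). The part of RNA from other cells in the even level was not tested.

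Erbb3 had 146 ± 51.0 CPM (SD, n = 5) in enterocyte-like, 115 ± 43.1 in immature enterocyte-like and 109.8 ± 40.2 in goblet-like cells. Cycling-like, stem-like and Paneth-like cells had 76.3 ± 25.1, 62.4 ± 17.1 and 19.0 ± 3.84 CPM. Enterocyte-like cells were 1.79 to 2.70 times as high as stem-like cells, in 5 of 5 libraries, which is the reverse of the order for Egfr. The T cell-like cells, which are not epithelial, had 97.8 ± 20.5 CPM of Erbb3. Enterocyte-like cells were above them in 4 of 5 libraries, stem-like cells in 1 and cycling-like cells in 0. No expression in stem-like and cycling-like cells is therefore read from these Erbb3 levels.

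Stem-like cells had 29.6 ± 10.4 CPM (SD, n = 5) of Lrig1 and cycling-like cells 28.9 ± 12.6, with 11.1 ± 6.26 and 9.59 ± 5.91 in goblet-like and immature enterocyte-like cells. It was lowest in Paneth-like (2.72 ± 1.53) and enterocyte-like cells (2.24 ± 0.837). Stem-like cells were above enterocyte-like cells in 5 of 5 libraries, by 7.68 to 21.5 times.

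**Figure D1:**
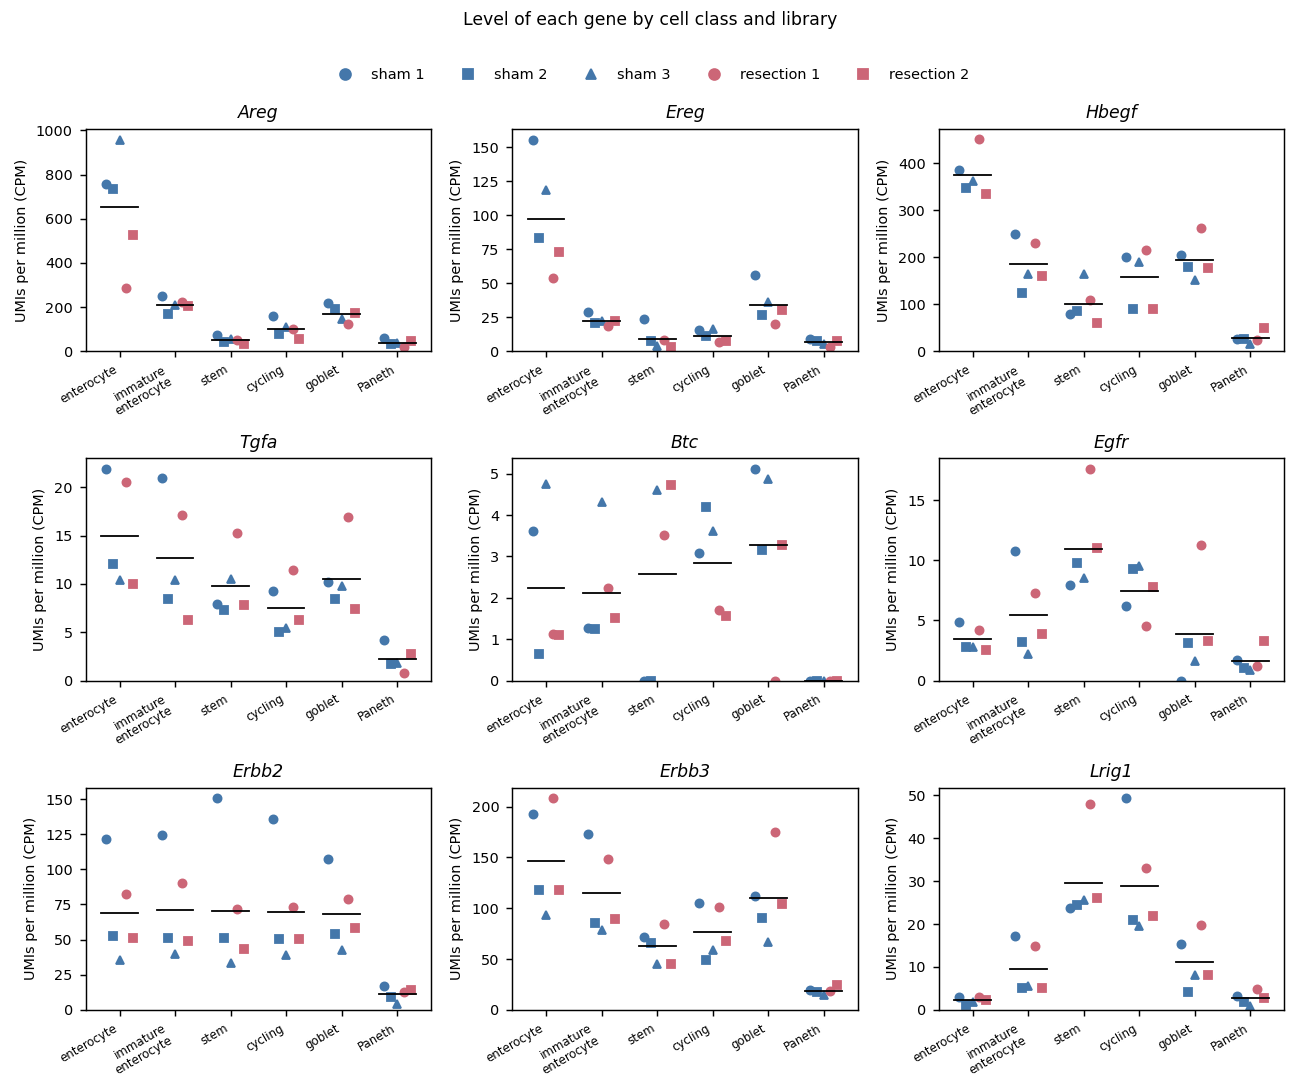
Level of each of the 9 genes (vertical axis, CPM on a linear scale from 0) in 6 epithelial classes (horizontal axis), 1 point per library and a line at the mean of the 5 libraries. Areg, Ereg and Hbegf are highest in enterocyte-like cells (means 653, 96.8 and 375 CPM), Egfr and Lrig1 in stem-like cells (11.0 and 29.6 CPM), and Erbb2 is even in all but Paneth-like cells.

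Free RNA can carry abundant transcripts between droplets, so the ligand levels outside enterocytes were set beside 8 enterocyte markers, such as Alpi and Fabp2. Most of their sum is Fabp2, with 17728 CPM over all epithelial cells, beside 2024 for Anpep, the next highest. The summed markers stood at 40.9% to 66.1% of their enterocyte-like level in T cell-like cells and at 36.7% to 58.9% in goblet-like cells. Areg stood at 21.8% to 74.9% of its own enterocyte-like level in T cell-like cells, although T cells can make amphiregulin themselves. In goblet-like cells Areg stood at 15.1% to 43.0%, below the markers in 5 of 5 libraries, and a level of this size cannot be told apart from enterocyte RNA.

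Hbegf was above the enterocyte markers in the crypt classes. The enterocyte markers stood at 7.36% to 14.5% of their enterocyte-like level in stem-like cells and at 7.35% to 17.4% in cycling-like cells. Hbegf stood at 18.2% to 45.5% and at 26.2% to 52.3%, above the markers in 5 of 5 libraries in both classes. Areg stood at 5.63% to 17.9% in stem-like cells, which overlaps the markers, and at 10.4% to 34.4% in cycling-like cells, above the markers in 5 of 5 libraries. The margin in cycling-like cells was narrow in resection 2, with 10.4% for Areg and 9.70% for the markers. It was also narrow in sham 2, with 10.5% and 9.40%, and it was widest in resection 1, with 34.4% and 7.35%. Tgfa stood higher than Hbegf in stem-like cells in 5 of 5 libraries, at 36.2% to 101%.

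**Figure D2:**
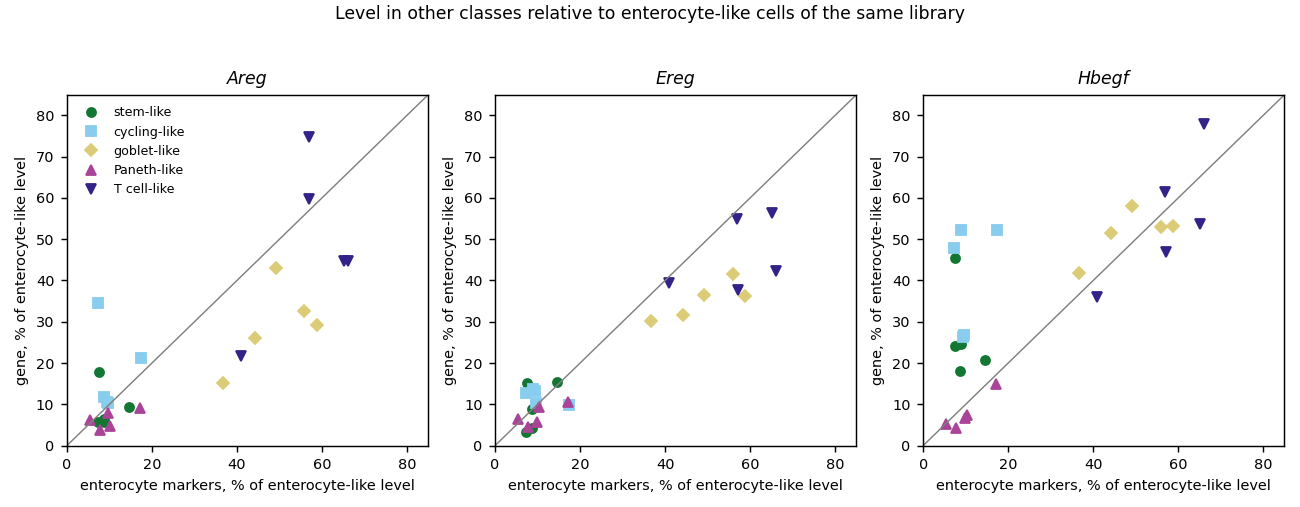
Level of Areg, Ereg and Hbegf in 5 other classes as a percentage of the enterocyte-like level of the same library (vertical axis) against the same percentage for the summed enterocyte markers (horizontal axis), 1 point per library and class, with a grey line where both are equal. Goblet-like points lie below the line for Areg, and stem-like and cycling-like points lie above it for Hbegf.

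Single cells were compared after each had been thinned by random draw to 2000 UMIs, with 0 cells left out. Among enterocyte-like cells, 49.7% ± 11.7 (SD, n = 5) had an Areg UMI, 44.5% ± 4.15 an Hbegf UMI, 25.0% ± 6.82 an Erbb3 UMI and 0.662% ± 0.301 an Egfr UMI. T cell-like cells, which are not epithelial, gave 32.5% ± 12.8 for Areg, 28.7% ± 4.01 for Hbegf, 18.2% ± 6.69 for Erbb3 and 0.342% ± 0.764 for Egfr. Since T cells can make amphiregulin, Paneth-like cells were set beside them, and 8.37% ± 4.34 of these had an Areg UMI. In Paneth-like cells the summed enterocyte markers stood at 5.34% to 17.2% of their enterocyte-like level. They stood at 40.9% to 66.1% in T cell-like cells, so the Paneth-like share may understate the background. Median depth before thinning was 3990 to 6100.5 UMIs in enterocyte-like, 4172 to 6702.5 UMIs in T cell-like and 5797 to 19635 UMIs in Paneth-like cells. Without thinning, 53.7% to 76.8% of enterocyte-like cells had an Areg UMI and 1.23% to 2.74% an Egfr UMI.

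A UMI of any of the 5 ligand genes was found in 70.5% ± 5.08 of thinned enterocyte-like cells (SD, n = 5), and one of any of the 3 receptor genes in 34.0% ± 9.43. In T cell-like cells these shares were 49.4% ± 7.68 and 26.6% ± 9.21. In stem-like cells they were 27.3% ± 6.74 and 26.1% ± 9.28, with means below the T cell-like ones, and no expression is read from these shares. Lrig1 was found in 5.91% ± 2.27 of stem-like cells against 0.659% ± 1.06 of T cell-like cells, and its 0.392% ± 0.195 in enterocyte-like cells is at background.

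Within enterocyte-like cells of 1 library, Areg transcripts tended to occur in the same cells as those of Ereg or Hbegf. Spearman's rho between thinned Areg and Ereg counts was 0.116 to 0.240 over 694 to 3812 cells per library, and between Areg and Hbegf 0.133 to 0.329. Between Ereg and Hbegf rho was lower, at 0.0288 to 0.174. Cells with an Hbegf UMI had an Areg UMI in 39.0% to 77.2% of cases, and cells without one in 26.2% to 49.7%. Between Areg and Erbb3, rho was -0.0322 to 0.0216. Cells of a library share its free RNA and the counts are sparse, so these values are descriptions.

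A list of 20 immediate early and heat shock genes, which respond to cell isolation, was followed beside the ligands. In enterocyte-like cells its summed level was 5184, 4785 and 5243 CPM in sham 1, 2 and 3 and 6647 and 3849 CPM in resection 1 and 2, so the resection libraries were the highest and the lowest. Across cells, rho between the list and Areg was 0.139 to 0.446, and between the list and Hbegf 0.224 to 0.431. The part of these genes in the ligand levels was not tested.

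Position along the villus was approximated by the share of 8 villus top genes, such as Ada and Nt5e, among the UMIs of villus top and bottom genes. The enterocyte-like and immature enterocyte-like cells of each library were cut into a lower, a middle and an upper range of this score with equal cell numbers, which are not cell types, with 234 to 944 cells per library within 0.002 of a boundary. Erbb3 was higher at each step in 5 of 5 libraries, with 121 ± 47.5 CPM (SD, n = 5) in the lower and 161 ± 55.2 in the upper range. Hbegf was higher in the upper than in the lower range in 5 of 5, at 389 ± 89.2 against 223 ± 53.0 CPM. Egfr (5.03 ± 2.72 and 3.25 ± 1.72 CPM) and Lrig1 (7.16 ± 2.91 and 2.45 ± 2.15 CPM) were lower in the upper range in 5 of 5. From the lower to the upper range the stress list also was higher in 5 of 5 libraries, at 2892 to 4560.3 CPM in the lower and 3901 to 7789 CPM in the upper range. The share of immature cells was lower in 5 of 5, at 42.0% to 76.4% and 1.84% to 16.5%. That order is partly built in, since Gsdmc2, Gsdmc3, Gsdmc4 and Lypd8 are both villus bottom genes and markers of the immature class. The part of the stress list or of the immature share in the differences of the members was not tested.

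Areg and Ereg had lower levels in the upper than in the lower range after resection, and higher levels there in sham. Areg had 450.2, 671 and 710.0 CPM in the lower, middle and upper range of sham 1, 287, 599.8 and 543 CPM in sham 2 and 321, 742 and 947 CPM in sham 3. The values were 279.6, 309 and 209 CPM in resection 1 and 405, 563 and 263 CPM in resection 2. From the lower to the middle range Areg was thus higher in 5 of 5 libraries, and from the middle to the upper range it was higher in sham 1 and 3 and lower in sham 2 and in both resection libraries. Ereg had 83.3, 129 and 145 CPM in sham 1, 31.1, 65.0 and 69.8 CPM in sham 2 and 37.8, 90.1 and 117 CPM in sham 3. It had 47.6, 47.9 and 33.9 CPM in resection 1 and 48.2, 74.2 and 43.6 CPM in resection 2, so that its last step was upward in the 3 sham libraries and downward in the 2 resection libraries. The ranges were cut within each library, and the upper range began at a score of 0.0216, 0.0166 and 0.0168 in sham 1, 2 and 3 and of 0.0247 and 0.0328 in resection 1 and 2, so it does not cover the same scores in both groups. The upper range is also not the villus tip. The 37 cells of sham 2 in cluster 17, which villus top genes such as Ada and Slc28a2 led, had 165 CPM of Areg and 14.3 of Ereg. Higher levels in the upper range of sham therefore do not mean higher levels in cells led by these genes. The difference in direction between the groups was not tested.

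In the upper range, Areg had 733 ± 203 CPM (SD, n = 3) in sham and 236 ± 38.2 CPM (SD, n = 2) after resection, a log2 difference of -1.76 in set A and -1.50 in set B. Ereg had 111 ± 38.1 and 38.8 ± 6.86 CPM there, a log2 difference of -2.10 in set A and -1.10 in set B. Both resection libraries were below every sham library for these genes, as they were for 14.5% of all genes in that range. In the middle range the same held for Areg and for 5.8% of all genes. In the lower range the groups overlapped for Areg (353 ± 86.3 and 342 ± 88.7 CPM) and Ereg (50.7 ± 28.4 and 47.9 ± 0.411 CPM). Immature cells made up 11.5% to 16.5% of the upper range in sham but 1.94% and 1.84% in resection 1 and 2, and the part of this in the result was not tested.

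**Figure D3:**
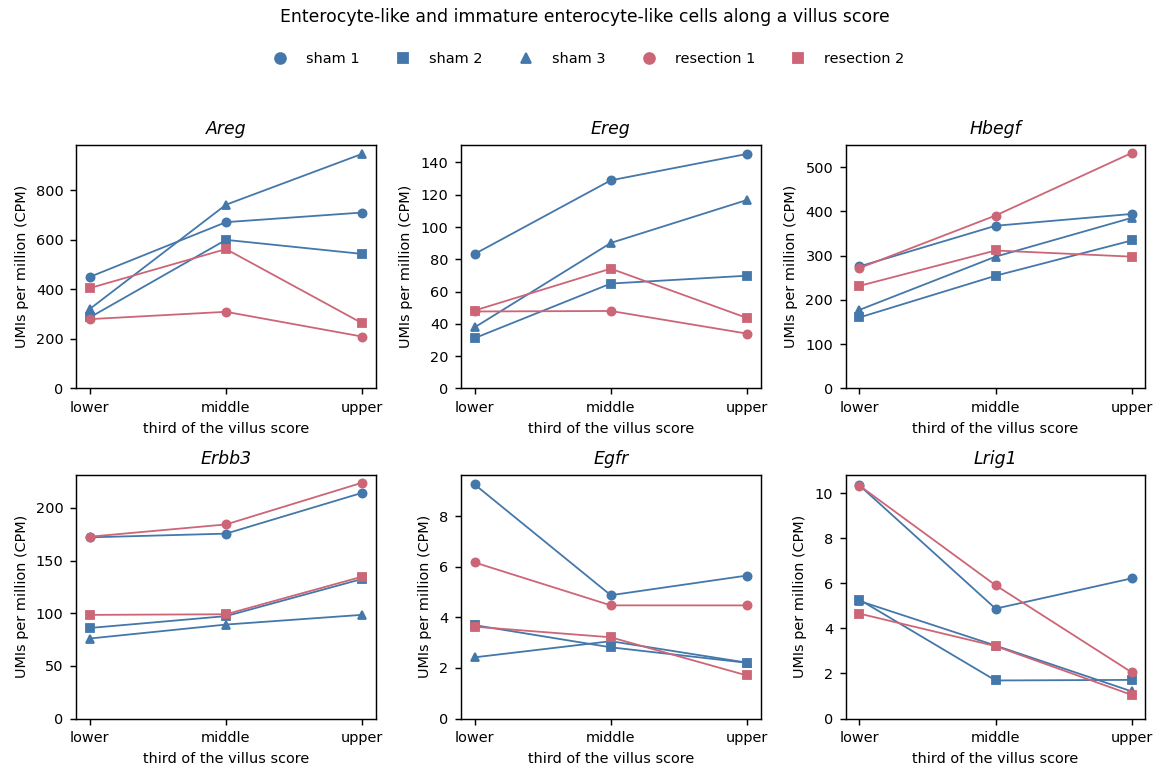
Level (vertical axis, CPM from 0) of 6 genes in the lower, middle and upper range of a villus score (horizontal axis), 1 line per library over enterocyte-like and immature enterocyte-like cells. Erbb3 and Hbegf are higher in the upper than in the lower range in 5 of 5 libraries, and Egfr and Lrig1 are lower. Areg and Ereg are higher in the upper than in the lower range in the 3 sham libraries and lower in the 2 resection libraries. Their middle range is higher than the lower one in all 5.

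Resection was then compared with sham within each class. In enterocyte-like cells the levels of Areg and Ereg were lower in both resection libraries than in every sham library, while the groups overlapped for the other 7 genes. No difference passed the test across all genes. With edgeR's quasi-likelihood test on counts summed per library, 0 of 9 members had a Benjamini-Hochberg adjusted p below 0.05, beside 0% of 10069 genes tested. At an unadjusted p below 0.05 there were 2 members, beside 5.16% of all genes, and DESeq2 called 0 members and 0.616% of all genes.

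Areg in enterocyte-like cells was 756, 736 and 959 CPM in sham 1, 2 and 3 and 288 and 528 CPM in resection 1 and 2. Both resection libraries were below every sham library, as they were for 7.01% of all genes, and resection 1 was the lower of the pair. The group means were 817 ± 123 CPM (SD, n = 3) in sham and 408 ± 169 CPM (SD, n = 2) after resection. The log2 fold change was -1.01 ± 0.43 (SE), and in edgeR its unadjusted p was 0.0468 and its adjusted p 0.953, with 0.254 to 1.0 over the alternatives. The log2 difference was -1.28 in set A and -0.72 in set B. Without resection 1 the fold change was -0.56 and without resection 2 -1.66.

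Ereg was 156, 83.3 and 119 CPM in sham 1, 2 and 3 and 54.0 and 72.6 CPM in resection 1 and 2. Both resection libraries were below every sham library, and resection 2 was close to sham 2. The log2 fold change was -0.89 ± 0.32 (SE), and in edgeR its unadjusted p was 0.0244 and its adjusted p 0.938, with 0.351 to 1.0 over the alternatives. The log2 difference was -1.42 in set A and -0.51 in set B, and the fold change was -0.60 without resection 1 and -1.25 without resection 2.

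Hbegf was 384, 346 and 362 CPM in the sham libraries and 450.2 and 334 CPM in the resection libraries, with the resection libraries the highest and the lowest of the 5. Its log2 fold change was 0.07 ± 0.28 (SE), and the log2 difference was 0.34 in set A and -0.12 in set B. Tgfa was 21.9, 12.0 and 10.4 CPM in the sham libraries and 20.6 and 10.0 CPM in the resection libraries, with the libraries of set A the higher ones in both groups, and its fold change was 0.05 ± 0.34, with 0.02 in set A and -0.20 in set B. Btc was 3.61, 0.633 and 4.76 CPM in the sham libraries and 1.14 and 1.10 CPM in the resection libraries. Sham 2 was below both resection libraries for Btc, and the fold change was -1.44 ± 0.71.

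Among the receptors, Egfr was 4.90, 2.78 and 2.79 CPM in the sham libraries and 4.24 and 2.51 CPM in the resection libraries, and its fold change was -0.05 ± 0.35 (SE), with -0.10 in set A and -0.19 in set B. Erbb2 gave -0.03 ± 0.42, with -0.45 in set A and 0.16 in set B. Erbb3 was 192, 118 and 93.7 CPM in the sham libraries and 209 and 118 CPM in the resection libraries, which gave 0.26 ± 0.32, with 0.23 in set A and 0.11 in set B. For Lrig1, the inhibitor, the level was 3.10, 1.14 and 1.76 CPM in the sham libraries and 3.03 and 2.20 CPM in the resection libraries, which gave 0.44 ± 0.41. The groups overlapped for these 4 genes, and each fold change was near or below its own standard error.

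**Figure D4:**
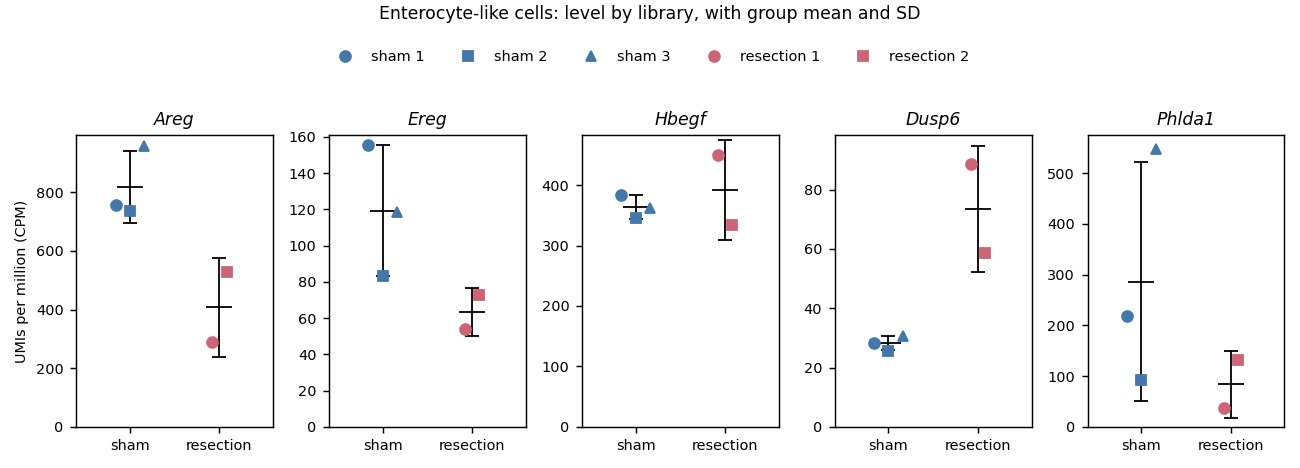
Level (vertical axis, CPM from 0) of Areg, Ereg, Hbegf, Dusp6 and Phlda1 in enterocyte-like cells of each library, with the mean and SD of 3 sham and 2 resection libraries. The groups do not overlap for Areg, Ereg and Dusp6, and they overlap for Hbegf and Phlda1.

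**Figure D5:**
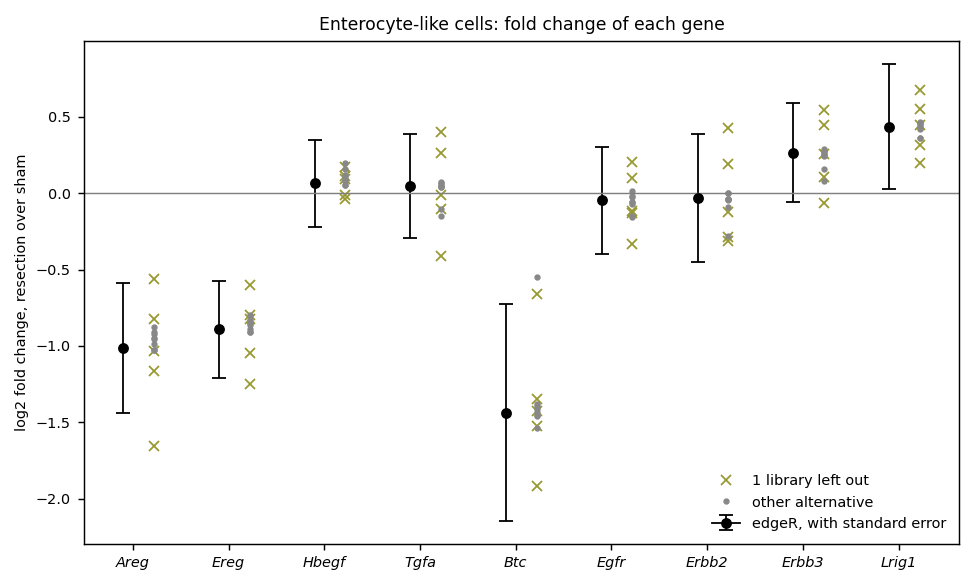
Log2 fold change of resection over sham of each of the 9 genes in enterocyte-like cells with its standard error, beside its values with 1 library left out (crosses) or under the other alternatives. Areg, Ereg and Btc are below 0 and Lrig1 is above 0 under every alternative run, and the other 5 genes lie on both sides of 0.

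In immature enterocyte-like cells Areg was 249, 170.1 and 207 CPM in the sham libraries and 223 and 204 CPM in the resection libraries. Its log2 fold change was -0.02 ± 0.26 (SE), with -0.10 in set A and 0.07 in set B. Ereg gave -0.25 ± 0.25, with -0.54 in set A and -0.01 in set B. The groups overlapped for both genes. With edgeR 0 of 9 members passed, 0 had an unadjusted p below 0.05 and DESeq2 called 0, beside 0%, 1.35% and 0.0196% of all genes. Whether the fold change of Areg differs between the enterocyte classes was not tested.

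The enterocyte-like cells themselves differed between the groups in the summed enterocyte and immature enterocyte markers. Few genes make up most of these sums. They are Fabp2 for the enterocyte markers, and Krt19 and Lypd8 for the immature ones (1987 and 1483 CPM over all epithelial cells). The summed enterocyte markers were 14965, 36736 and 21678 CPM in sham 1, 2 and 3 and 38510.3 and 64782 CPM in resection 1 and 2. Immature enterocyte markers were 4053, 3699 and 5131 CPM in the sham libraries and 1715 and 2367 CPM in the resection libraries. The resection libraries were above every sham library in the first measure and below in the second, and the part of either in the Areg and Ereg differences was not tested.

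Areg also varied among the clusters of enterocyte-like cells. It had 1082 CPM in cluster 8 and 151 CPM in cluster 17, whose leading genes included the villus top genes Ada, Clca4a, Slc28a2 and Pmp22. In resection 2, cluster 8 held 19.3% of the enterocyte-like cells and 55.7% of their Areg UMIs. Its Areg level was 1322 CPM in sham 2, 957 in sham 3 and 1044 in resection 2, so that the resection library lay between the sham libraries. In 4 other clusters with at least 20 cells in libraries of both groups the resection values were the lower ones. In cluster 4 Areg had 684 and 979.9 CPM in sham 2 and 3 and 476 in resection 2, and in cluster 6 it had 986 CPM in sham 3 and 786 in resection 2. Cluster 17 had 165 CPM in sham 2 and 63.0 and 146 in the resection libraries. Cluster 19 had 459.5 and 495 CPM in sham 2 and 3 and 282 and 322 after resection. These clusters held 21 to 70 cells of each resection library given, except for 238 of resection 2 in cluster 17. In cluster 1, where most enterocyte-like cells of resection 2 lay, Areg had 325 CPM in that library and 118 in resection 1, beside 227 and 270.2 in sham 2 and 3.

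In stem-like cells Lrig1 was 23.8, 24.4 and 25.7 CPM in the sham libraries and 48.1 and 26.0 CPM in the resection libraries, and Egfr was 7.93, 9.78 and 8.56 CPM in the sham libraries and 17.6 and 11.0 CPM in the resection libraries. Both resection libraries were above every sham library for these genes, as they were for 6.82% of all genes tested, though resection 2 was close to the sham libraries. Lrig1 gave a log2 fold change of 0.45 ± 0.36 (SE). The Egfr values come from 1, 4 and 13 UMIs in sham and 15 and 14 after resection, too few for the test, as were those of Ereg, Tgfa and Btc. Of the 5 members tested, edgeR called 0, 0 had an unadjusted p below 0.05 and DESeq2 called 0, beside 0.0131%, 1.53% and 0.0131% of all genes.

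In cycling-like cells Ereg was 15.4, 10.9 and 16.3 CPM in the sham libraries and 6.84 and 7.41 CPM in the resection libraries. The resection libraries were below every sham library, as they were for 3.91% of all genes. These levels were 9.91% to 13.7% of the enterocyte-like ones, beside 7.35% to 17.4% for the enterocyte markers, so the difference cannot be told apart from that of enterocyte RNA. The log2 fold change was -1.04 ± 0.38 (SE), and in edgeR its unadjusted p was 0.0209 and its adjusted p 1.0, with 0.884 to 1.0 over the alternatives. Areg gave -0.62 ± 0.34, with -0.68 in set A and -0.77 in set B, and its groups overlapped. Btc, which had too few counts for the test, was 3.08, 4.20 and 3.63 CPM in the sham libraries and 1.71 and 1.56 CPM in the resection libraries, again without overlap. Of 8 members tested, edgeR called 0, 1 had an unadjusted p below 0.05 and DESeq2 called 0, beside 0%, 1.43% and 0% of all genes.

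In goblet-like cells Erbb3 was 113, 90.6 and 66.8 CPM in the sham libraries and 175 and 105 CPM in the resection libraries. Its log2 fold change was 0.63 ± 0.37 (SE), with 0.70 in set A and 0.44 in set B. Its groups overlapped in CPM, but after scaling by edgeR's TMM factors, which adjust for the make-up of each library, the resection libraries were above every sham library, as they were for 10.5% of all genes. Egfr had 0, 3 and 1 UMIs in sham and 4 and 4 after resection, too few for the test, and in CPM its resection libraries were above every sham library, as they were for 9.52% of all genes tested. In Paneth-like cells Ereg gave -0.71 ± 0.41, and Areg -0.68 ± 0.41, with -1.51 in set A and -0.06 in set B. Hbegf gave 0.47 ± 0.37, with 0.08 in set A and 0.82 in set B, and the groups overlapped in CPM for all 3 genes. After TMM scaling the resection libraries were below every sham library for Ereg, as for 6.53% of all genes, and above for Hbegf, as for 7.43%. Of the 5 members tested in each of these classes, edgeR called 0, 0 had an unadjusted p below 0.05 and DESeq2 called 0. These shares of all genes were 0.116%, 3.61% and 0.116% in goblet-like cells and 0.0655%, 2.21% and 0.0982% in Paneth-like cells.

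Over all epithelial cells Areg was 346, 362 and 515 CPM in the sham libraries and 208 and 353 CPM in the resection libraries, so that resection 2 lay within the sham range. The log2 fold change was -0.68 ± 0.37 (SE), with -1.12 in set A and -0.34 in set B. Ereg gave -0.68 ± 0.32, with -1.38 in set A and -0.19 in set B, and Hbegf 0.18 ± 0.27, with 0.25 in set A and 0.08 in set B. The groups of these 3 ligands overlapped in CPM, but after TMM scaling the resection libraries were below every sham library for Areg and Ereg, as for 6.25% of all genes, and above for Hbegf, as for 7.89%. Of 9 members edgeR called 0, 0 had an unadjusted p below 0.05 and DESeq2 called 0, beside 0%, 2.78% and 0.289% of all genes. In cells summed in this way, fewer cells of a class and less RNA per cell cannot be told apart from the sums alone. Paneth-like cells, low in these ligands, held 4577349 of 10683629 UMIs in sham 1, 2849861 of 20524553 in sham 2 and 1123941 of 21413366 in sham 3. They held 4075477 of 25657362 in resection 1 and 1813071 of 35257969 in resection 2. The part of this make-up in the differences was not tested.

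The rest of the pathway was followed as 73 genes in 5 roles. In enterocyte-like cells 64 were tested and edgeR called 0, with 4 higher and 1 lower at an unadjusted p below 0.05 (beside 5.16% of all genes), while DESeq2 called 2 (beside 0.616%). Their median log2 fold change was 0.00, beside -0.02 over all 10069 genes. Over all epithelial cells 67 were tested and edgeR called 0, with 1 higher and 1 lower at an unadjusted p below 0.05 (beside 2.78% of all genes), while DESeq2 called 1 (beside 0.289%). For 13 of the 67 both resection libraries were above every sham library, beside 18% of all genes.

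Other receptor and ligand genes of the family were rare. No UMI of Erbb4 or of Nrg1, a neuregulin gene, was counted among 113536879 in epithelial cells, which allows up to 0.0264 CPM. Egf had 28 UMIs and Epgn 11. Nrg4, which encodes a ligand of ERBB4, was 0.516, 0.380 and 0.621 CPM in the sham libraries and 2.50 and 1.94 CPM in the resection libraries in enterocyte-like cells. The sham levels rest on few UMIs, as the class held 3876071, 7901715 and 9666926 UMIs in sham 1, 2 and 3. For Nrg4 both resection libraries were above every sham library, as they were for 8.69% of all genes. Its log2 fold change was 2.02 ± 0.47 (SE), with an adjusted p of 0.504 in edgeR and 0.0510 to 1.0 over the alternatives.

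Of 6 genes of ligand shedding, 1 had a positive and 5 a negative fold change in enterocyte-like cells, and 0 had an unadjusted p below 0.05. Adam17, whose product is the main enzyme that releases Areg, gave 0.30 ± 0.35 (SE), with -0.09 in set A and 0.46 in set B, and Adam9 -0.31 ± 0.26. Rhbdf1, whose product helps that enzyme to mature, gave -0.41 ± 0.32 over all epithelial cells. Of 25 genes of signal relay, 18 were positive and 7 negative, with a median of 0.06. Sos1, an activator of Ras, was 16.3, 12.3 and 10.7 CPM in the sham libraries and 24.4 and 16.5 CPM in the resection libraries, with a fold change of 0.62 ± 0.24, and 0.70 in set A and 0.49 in set B. The adaptor gene Gab1 was 20.9, 16.6 and 13.0 CPM in the sham libraries and 28.5 and 21.6 CPM in the resection libraries, with 0.55 ± 0.24, and 0.56 in set A and 0.50 in set B. Both resection libraries were above every sham library for Sos1 and Gab1, the 2 relay genes with the lowest unadjusted p, as they were for 8.69% of all genes. The adjusted p in edgeR was 0.940 for Sos1 and 0.956 for Gab1.

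Of 16 feedback and inhibitor genes, 7 were positive and 9 negative in enterocyte-like cells. Dusp6, whose product is a phosphatase that switches off the MAP kinase ERK, was 28.4, 25.7 and 30.5 CPM in sham 1, 2 and 3 and 88.6 and 58.5 CPM in resection 1 and 2. Every resection value was above every sham value, as for 8.69% of all genes, and the log2 fold change was 1.33 ± 0.26 (SE), with 1.76 in set A and 1.02 in set B. The adjusted p was 0.385 in edgeR and 0.0119 in DESeq2, with 0.00330 to 1.0 over the alternatives. Over all epithelial cells Dusp6 gave 1.37 ± 0.22, with an adjusted p of 0.600 in edgeR and 0.00127 in DESeq2, and 0.000831 to 1.0 over the alternatives. It gave 1.28 ± 0.37 in goblet-like, 1.41 ± 0.46 in Paneth-like and -0.44 ± 0.70 in cycling-like cells, and 0.53 ± 0.29 in immature enterocyte-like ones. Cbl, whose product marks EGFR for breakdown, gave 0.52 ± 0.26 in enterocyte-like cells.

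Of 16 response genes, 5 were positive and 11 negative in enterocyte-like cells, with a median of -0.16. Many response genes, such as Egr1, Fos, Jun, Junb, Ier2 and Atf3, are also in the stress list. Plaur, the urokinase receptor gene, was 9.55, 1.27 and 10.0 CPM in the sham libraries and 0.454 and 1.20 CPM in the resection libraries, and sham 2 was close to resection 2. Its log2 fold change was -2.95 ± 0.86 (SE), with an adjusted p of 0.726 in edgeR and 0.0293 in DESeq2, and 6.45e-08 to 1.0 over the alternatives. Fosl1, which encodes an AP-1 subunit, gave -1.01 ± 0.48, with -2.14 in set A and -0.38 in set B. Phlda1 was 217, 91.9 and 548 CPM in the sham libraries and 37.2 and 131 CPM in the resection libraries and its groups overlapped through sham 2. Over all epithelial cells Phlda1 gave -1.38 ± 0.68, with -1.97 in set A and -0.96 in set B.

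In Paneth-like cells 14 response genes were tested, and 13 had a negative and 1 a positive log2 fold change, with a median of -0.49 beside 0.00 over all 6109 genes. The stress list, which shares many of these genes, was 1958, 1541 and 1890 CPM in the sham libraries there. In the resection libraries it was 1562 and 1312 CPM. The part of cell isolation in this result was not tested. edgeR called 0 of them, 0 had an unadjusted p below 0.05 and DESeq2 called 0. For 4 both resection libraries were below every sham library, as they were for 3.75% of all genes.

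Genes whose levels were most like those of a member were ranked by Pearson's r of log2(CPM + 1) over the 30 sums of library and epithelial class, among 6527 genes. The sums share libraries, so r is a description. For Areg they included Pnrc1 (0.943) and Arl4a (0.939). For Ereg they were Slc51a (0.919), Slc10a2 (0.916) and 1700019G17Rik (0.911), of which Slc51a and Slc10a2 encode bile acid transporters. For Hbegf they were Tes (0.961), Dstn (0.955) and Azin1 (0.955), and for Tgfa Ogfr (0.936), Mapk1ip1l (0.930) and Clcn3 (0.927). For Erbb2 they were Dsp (0.972), Peak1 (0.968) and Ctdsp2 (0.966), and for Erbb3 they included Tgoln1 (0.979) and Zzef1 (0.974). Lrig1 was most like Ephb2 (0.958), Anapc5 (0.952) and Cbx3 (0.952), of which Ephb2 encodes a receptor of crypt cells.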

How the data were processed

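The deposited matrices hold raw UMI counts per gene and cell, with build mm10 (GRCm38) per the submitters' processing notes, and every cell in them had at least 2354 UMIs. Cells under 500 genes or over 20% mitochondrial counts were left out, and 720 cells (3.80%) with the highest doublet scores, from 2 simulated doublets per cell, were removed. Clustering used 2000 variable genes without the members and the pathway list, 30 principal components, 20 neighbours and Leiden resolution 1.0 (leidenalg 0.10.2, Python 3.11.15), and clusters were named by marker lists. Counts were summed per library and class and tested in R 4.3.3 with edgeR 4.0.16 (TMM scaling, filterByExpr, quasi-likelihood F-test, two-sided, Benjamini-Hochberg adjustment over all genes tested, threshold 0.05). DESeq2 1.42.0 was an alternative, with other size factors, no filter on low counts, a replicate block, library set as a term, each library left out, doublets kept, 10% mitochondrial counts, resolution 0.5 and genes scaled within libraries. The edgeR test was checked on simulated data. Differences within a set are log2 ratios with no test. For the classes they use CPM scaled by the TMM factors, and for the ranges of the villus score they use CPM without this scaling.

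The members and lists were chosen with earlier results of these data known. Genes named are the 9 members, pathway genes called in any class, for each role the 2 genes with the lowest unadjusted p in enterocyte-like and in all epithelial cells, and the 3 genes most like each member with at least 5 CPM. Some genes that these rules name are not reported here. Phlda1 in enterocyte-like cells, Egf, Epgn, Erbb4 and Nrg1 were also given values. Intervals and floors cover counting error only.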

Additional observations from a re-analysis of the deposited data

How the results depend on the processing

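Of 39 fold changes followed, 33 kept their direction under every alternative run, among them those of Areg and Ereg in enterocyte-like cells, and the count of members called stayed at 0 in each class. Of the pathway list, where edgeR called 0, the call count in enterocyte-like cells was 3 without the low-count filter (Dusp6, Phlda1 and Plaur), 2 with DESeq2 (Dusp6 and Plaur) and 1 with the replicate block (Dusp6). Over all epithelial cells it was 1 with DESeq2 and 1 with the block (Dusp6), and with the block it was 1 in stem-like (Jun) and 1 in goblet-like cells (Dusp5). Egfr in enterocyte-like cells turned to 0.0160 at resolution 0.5. Tgfa there turned to -0.15 with the block and -0.11 with the set as a term. Areg in immature enterocyte-like cells turned to 0.00183 without the filter, 0.0462 with the block and 0.00265 with the set as a term. With 1 library left out, the log2 fold change ranged over -0.33 to 0.20 for Egfr, -0.31 to 0.43 for Erbb2, -0.068 to 0.54 for Erbb3, -0.041 to 0.17 for Hbegf and -0.41 to 0.40 for Tgfa in enterocyte-like cells, and over -0.14 to 0.10 for Areg in immature ones. The cause was not tested. The groups share the replicate numbers 1 and 2, which the labels do not tie to an animal or batch. Deviations from the group means had r of 0.40 to 0.65 for the pair numbered 1 and 0.16 to 0.53 for the pair numbered 2. Sham 3 and resection 2, which share no number, had r of 0.12 to 0.51. The deviations of the 2 resection libraries mirror each other, so these values cannot show pairing by number. With this replicate block, Areg in enterocyte-like cells gave -0.91 ± 0.27 (SE; adjusted p of 0.254 in edgeR) and Ereg -0.83 ± 0.28 (0.351). Not run, for fewer than 20 cells in a library, were the 10% mitochondrial limit in enterocyte-like, stem-like, cycling-like and goblet-like cells, and doublets kept and resolution 0.5 in stem-like cells. Depth limits Egfr, Btc and Lrig1 most.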

Other observations

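The 26 tuft-like cells, pooled over the libraries, had 175 CPM of Areg, 163 of Hbegf and 90.6 of Erbb3, from 29, 27 and 15 UMIs, beside 356 CPM of the tuft marker Dclk1. They were too few to be split by surgery group.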
